A study of Mus musculus with 2 samples.

Results

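Il33 or Cd34 positive cells are the small population of a 4T1 tumour that carries transcripts of the alarmin interleukin 33 or of the surface sialomucin CD34 without the leading transcripts of T cells, macrophages, mast cells or neutrophils. A cell was taken when it had at least 2 molecules of Il33 or of Cd34, no molecule of Cd3d, Cd3e or Cd3g, at most 2 molecules of C1qa and C1qb together, at most 1 molecule of Fcer1a and Cpa3 together, and less than 10% of its molecules from S100a8. This gave 82 of 12018 cells. The same counts that are described here chose the cells, so every value is a description.

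The cells came from female BALB/c mice of 8 weeks that carried orthotopic tumours of 4T1, a mouse mammary carcinoma line, in the fourth mammary fat pad. Treatment began at 7 days, at about 70 mm3, with Rat IgG2a isotype control, anti-Siglec-E, anti-PD-1 or both blocking antibodies, and 2 of the 6 tumours of an arm were dissociated. The experimenters mixed sorted EPCAM-positive and EPCAM-negative cells 1 to 4, which fixed the epithelial share. Each of the 2 samples was 1 cartridge of a targeted single-cell assay (BD Rhapsody, mouse immune response panel) with 2 arms under sample tags: tags 1 and 2 hold isotype control and anti-Siglec-E cells (the no-anti-PD-1 pool), and tags 3 and 4 hold anti-PD-1 and combination cells (the anti-PD-1 pool). The labels do not say which tag is which arm. Each pool is 1 sample, tags are not replicates of each other, and no test was possible.

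The rule was met by 25 of 2430, 13 of 1515 and 32 of 6620 cells in tags 1 to 3 and by 12 cells of tag 4. Over the 396 genes counted in all tags, the median total of these cells was 4910, 3190, 2371 and 4450 molecules, against 1443, 1312, 1258 and 1403 in the other cells. Of the 82 cells, 16 (8, 0, 5 and 3 by tag) lay above the 95th percentile of totals of their own tag. No doublet caller was run, and these 16 cells were left out in an alternative. Between tags 2 and 3 of the different cartridges 16 cell indices recur, and 1 of them belongs to a chosen cell of tag 2.

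IL-33 is stored in the nuclei of fibroblasts, endothelial cells and epithelial cells and signals, once released, through ST2, the product of Il1rl1. CD34 marks blood vessel endothelium, connective tissue fibroblasts and also blood cell progenitors, so 1 transcript of either gene does not fix a lineage. The other markers set for these cells were Lrrc32, which encodes GARP, a surface anchor of latent TGF-beta, Ccl2, the chemokine that draws CCR2-bearing monocytes, and Thbd, thrombomodulin, an anticoagulant receptor. On GRCm38 (GENCODE M21) all 5 are protein-coding: Il33 at chr19:29925114-29960718, Cd34 at chr1:194938819-194961279, Lrrc32 at chr7:98489283-98502181 and Ccl2 at chr11:82035571-82037453 on the plus strand, and Thbd at chr2:148404466-148408188 on the minus strand.

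The stromal-like label held for part of the cells. Split by which gene reached 2 molecules, 30 cells had both genes, 34 had Cd34 only and 18 had Il33 only. The 30 double-positive cells carried Thy1, Ccl2, C3 and Fn1, genes that fibroblasts express, with little Ptprc, the gene of the pan-leukocyte antigen CD45. Of the 34 Cd34-only cells, 22 had at least 2 Ptprc molecules and carried myeloid genes. Of the 14 Il33-only cells in tags 2 to 4, where Epcam was counted, 10 had at least 2 Epcam molecules, which marks epithelium. Only the double-positive cells fit the label as a whole, though some of them also reached 2 Ptprc molecules. A tag 3 cell and a tag 4 cell had 4 Ptprc molecules each, with 11 and 17 of Fcer1g and 97 and 812 of S100a8. The Lgals1 level that marks tumour-like cells (at least 2% of molecules) was also met by 59 of the 82 cells, among them 28 of the 30 double-positive, 26 Cd34-only and 5 Il33-only cells.

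**Figure D1:**
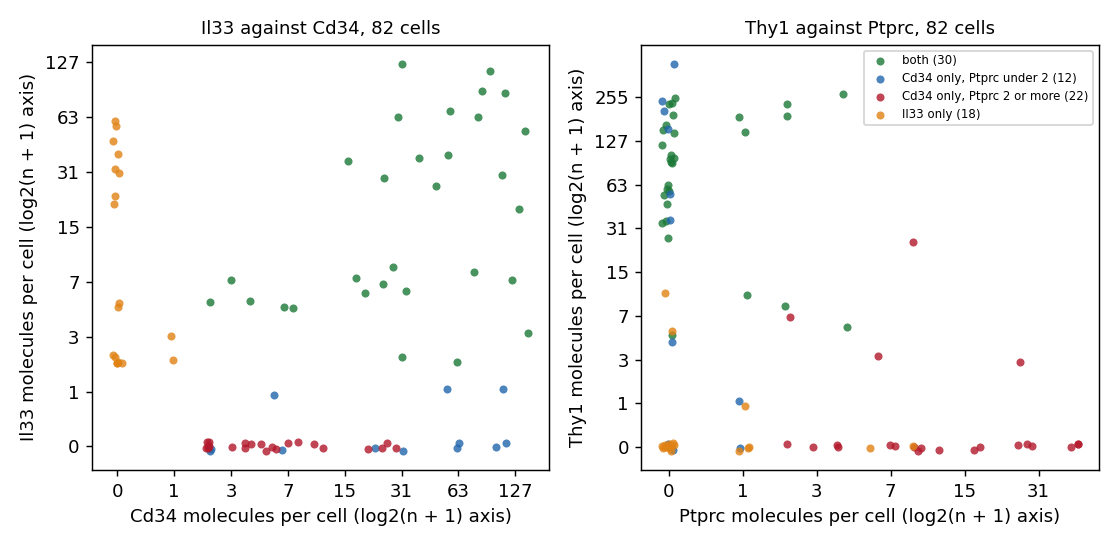
Molecules per cell in all 82 cells, Il33 against Cd34 (left) and Thy1 against Ptprc (right), on log2(n + 1) axes labelled in molecules, with points spread slightly so that equal values can be seen. Colours mark the subsets. The 30 double-positive cells have 5 or more Thy1 molecules, and 18 of the 22 Cd34-only cells with Ptprc have under 2.

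In the double-positive cells both rule genes reached high counts. In tag 1 the lowest, median and highest Il33 counts over 10 cells were 2, 27.0 and 110, and those of Cd34 were 2, 76.5 and 148. In the 4 cells of tag 2 the pairs of Il33 and Cd34 counts were 37 and 56, 7 and 3, 28 and 25, and 5 and 4. In the 10 cells of tag 3 Il33 ran from 2 over a median of 12.5 to 68 molecules and Cd34 from 7 over 30.5 to 137. In the 6 cells of tag 4 Il33 ran from 3 over 8.5 to 127 molecules and Cd34 from 15 over 54.0 to 142. The ranges of the 4 tags overlapped for both genes.

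Thy1, a surface glycoprotein of fibroblasts and of T cells (chr9:44043384-44048579, plus strand), was the gene that set the double-positive cells apart most evenly. All 30 had at least 2 Thy1 molecules, with 5 as the lowest, 96.5 as the median and 272 as the highest count. Among Cd34-only cells 11 of 34 reached 2 molecules, and among Il33-only cells 2 of 18. Cd3d, Cd3e and Cd3g were at 0 by the rule, and of the T cell genes the rule did not use, Cd4, Cd8a, Cd8b1, Foxp3 and Trac also had 0 molecules in all 82 cells. Trbc2, a T cell receptor chain, had 7 molecules in tag 1 and 5 in tag 3. Of the other listed T cell genes, Cd2 had 8 molecules in tag 1 and 2 in tag 4, and Cd5 had 1 in tag 3. In the S100a8-rich gate (cells with at least 10% S100a8, which should lack Thy1), 1.67% of 6820 cells had 2 Thy1 molecules, at a median total of 1493 molecules. The 82 cells had a median total of 3175.

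Secreted and matrix genes followed the same order, in sets that differed in depth, with median totals of 4760, 3130.5 and 1745.5 molecules for double-positive, Cd34-only and Il33-only cells. Fn1, the matrix protein fibronectin, had a median of 378 molecules in the double-positive cells, 38.5 in Cd34-only cells and 0.5 in Il33-only cells, and per 1000000 molecules of the set (CPM) it had 82960, 26741 and 10863. The part of depth in these medians and shares was not tested. C3, the central complement protein, had medians of 144, 6.5 and 4.0 in the same order. At least 2 Ccl2 molecules were found in 26 of 30 double-positive, 15 of 34 Cd34-only and 4 of 18 Il33-only cells. For Il6, an inflammatory cytokine, these numbers were 21, 15 and 1. Thus each of these 4 genes was seen in all 3 sets, and its summed level was highest where Il33 and Cd34 met: Ccl2 had 64412 CPM in double-positive, 28550 in Cd34-only and 6820 in Il33-only cells.

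Genes of the cell surface and of transcription divided the double-positive from the Il33-only cells. Of those named here, Dpp4 and Thbd were also found at 2 or more molecules in some Cd34-only cells. Dpp4, a surface peptidase, had 2 or more molecules in 22 of 30 double-positive cells and in 0 of 18 Il33-only cells, where no molecule was counted. Thbd was found in 17 of 30 and 0 of 18, again without a molecule in the Il33-only set. A count of 0 in 18 cells, here of lower depth, allows a share of cells with a molecule of up to about 16.7%. This limit was taken as 3 over 18 cells and is not an exact interval. Lrrc32 reached 2 molecules in 23 of 30, 6 of 34 and 3 of 18 cells, and Ebf1, a transcription factor of B cells and of mesenchymal cells, in 19, 6 and 1. The B cell gene Pax5 had no molecule in any of the 82 cells.

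Several defining genes of stromal lineages were not analysed here. Of the 20 fibroblast genes listed, 7 were counted in all tags (Thy1, Fn1, Il6, C3, Tgfb3, Thbs1 and Csf1), and together they made up 17.1% of molecules in the double-positive cells, 6.61% in Cd34-only and 2.55% in Il33-only cells. The same 7 genes made up 4.71% in the Lgals1-high gate, cells with at least 2% of molecules from Lgals1 that passed the other exclusions but were not chosen, and 2.25% in the macrophage gate. Of the 20 endothelial genes, Icam1, Thbd, Lrrc32 and Cd34 were counted in all tags and Vwf, the von Willebrand factor of endothelium and platelets, in tags 2 to 4. In the 57 cells of those tags Vwf reached 2 molecules in 1 Cd34-only cell with 34 molecules and in 1 Il33-only cell with 2 molecules, and it was at 0 in the 20 double-positive cells. A fibroblast and an endothelial identity of the double-positive cells were therefore not told apart by more than these genes.

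Of the genes counted in tags 2 to 4 alone, Cfb, complement factor B, and Flrt2, an adhesion protein, stood highest over the other cells. Cfb had 6033, 10099 and 12272 CPM in the chosen cells of tags 2 to 4 and 314, 346 and 472 CPM in all other cells. All 20 double-positive cells of these tags had at least 2 Cfb molecules, with a median of 58.5, against 9 of 23 Cd34-only and 3 of 14 Il33-only cells. The macrophage gate (cells with 3 or more C1qa and C1qb molecules) also carried Cfb, with 2 molecules in 80.1% of its cells. Flrt2 had 140, 345 and 1067 CPM in the chosen cells and 7.4, 3.1 and 6.6 in the others, and reached 2 molecules in 9 of 20, 4 of 23 and 0 of 14 cells.

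The 22 Cd34-only cells with Ptprc carried genes of bone marrow derived cells. Lyz2, the lysozyme of monocytes and neutrophils, was at 2 or more molecules in 21 of them, with a median of 172 and a highest count of 637. Fcer1g, a signalling chain of Fc receptors, was found in 20, Cd14, a receptor part for bacterial lipopolysaccharide, in 20, and Ccr2, the receptor for Ccl2, in 14. Their summed macrophage genes, a list with Lyz2, Cd14, C1qa and C1qb, made up 10.6% of molecules, against 10.8% in the macrophage gate. C1qa and C1qb choose that gate and are capped by the rule, so the 2 sums are not alike. C1qa had no molecule in any of the 82 cells. In the double-positive cells the same list made up 0.296%, and Ccr2 had no molecule at all.

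Some of these 22 cells had genes of progenitors or dendritic cells. H2-Aa, a class II chain, had 2 or more molecules in 12 of them, Irf8, a transcription factor of monocytes and dendritic cells, in 13, Flt3, a growth factor receptor of progenitors and dendritic cells, in 7, and Elane, neutrophil elastase of early granulocytes, in 6. Single cells weighed heavily: 1 cell held 84.0% of the 206 Elane molecules and 1 cell held 69.7% of the 244 Irf8 molecules. Thy1 reached 2 molecules in 4 of the 22 and Ccl2 in 7. Their Cd34 counts were low, with a median of 5.0 and a highest count of 30, against a median of 37.0 in double-positive cells.

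The other 12 Cd34-only cells had under 2 Ptprc molecules and were themselves mixed. Thy1 reached 2 molecules in 7 of them, Ccl2 in 8, Dpp4 in 6 and Thbd in 7, and their median Cd34 count was 43.5. Of the 7 in tags 2 to 4, 2 had at least 2 Epcam molecules and 5 had Cfb. Lgals1, the lectin galectin-1, was 145726 CPM in these 12 cells, against 143914 CPM in the Lgals1-high gate and 97758 CPM in the double-positive cells. Of their Ube2c molecules, a gene of mitosis, 75.7% lay in 1 cell, and of those of Top2a, a topoisomerase of dividing cells, 60.9%.

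The Il33-only cells were mainly epithelial by Epcam and Cdh1, the gene of E-cadherin. Of these cells, 4 in tag 2 and 6 in tag 3 had at least 2 Epcam molecules, with 26 as the lowest, 99.0 as the median and 302 as the highest count. All 10 also had 2 or more Cdh1 molecules, none had 2 Ptprc or 2 Thy1 molecules, and their Il33 counts ran from 2 over a median of 24.0 to 56. The 2 Il33-only cells of tag 4 had 2 Il33 molecules each, had Ptprc, and lacked Epcam, and 1 of them had 13 Cdh1 molecules. None of the 20 double-positive cells had an Epcam molecule, and 3 of 23 Cd34-only cells had at least 2. In the Lgals1-high gate 77.2% of cells had 2 Epcam molecules, and in the S100a8-rich gate 1.88%.

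The 10 Epcam-positive Il33-only cells differed from Epcam-positive cells of the Lgals1-high gate in Lgals1, which that gate itself uses. Lgals1 took 0 to 7.04% of their molecules, with a median of 0.241%, whereas the 500 gate cells ran from the threshold of 2% to 56.9% with a median of 11.8%. Other genes were set side by side only for all Il33-only cells and the whole gate, which both include cells without 2 Epcam molecules. Fosb, an immediate early transcription factor, had 122972 CPM in the 18 Il33-only cells and 34162 CPM in the gate. Cd200, an inhibitory surface ligand, had 4933 against 18.2 CPM. Msln, mesothelin, reached 2 molecules in 1 of 14 Il33-only cells, with 23 molecules, and in 64.4% of the gate cells.

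**Figure D2:**
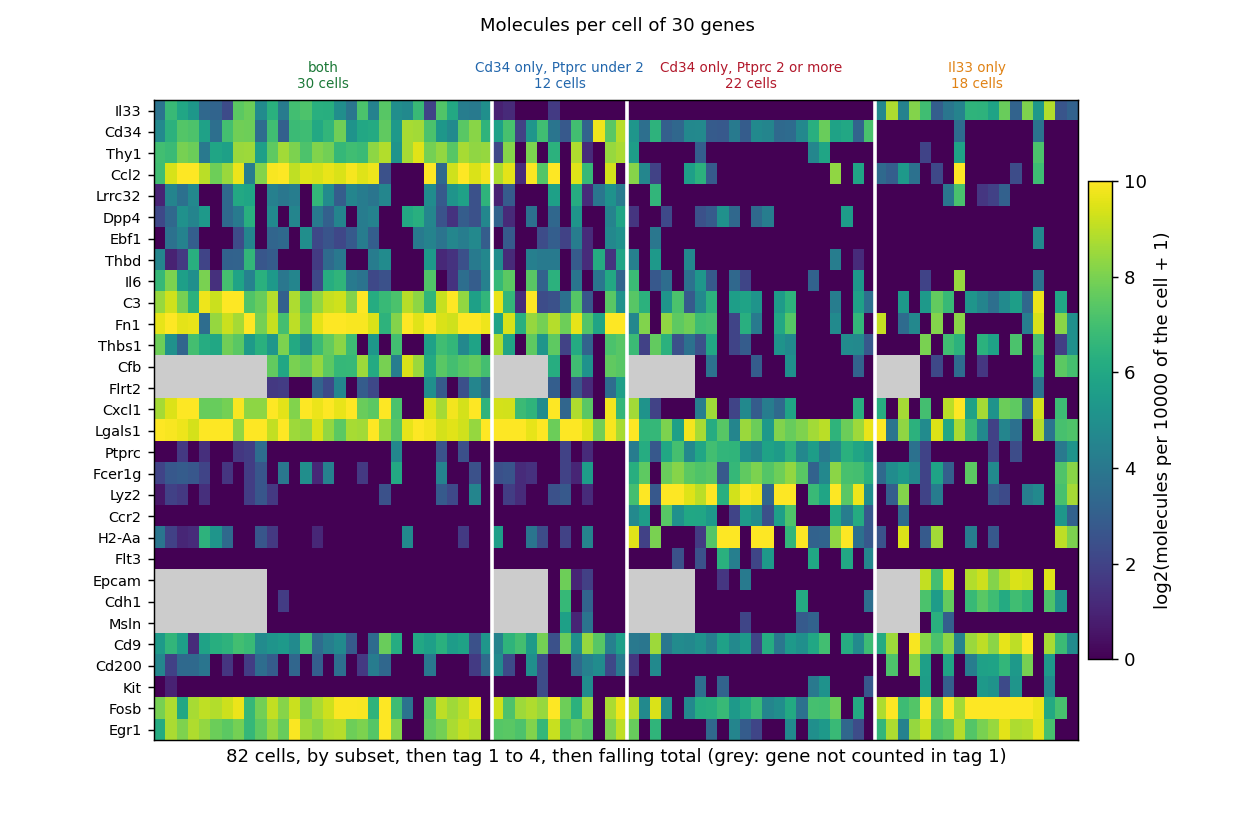
Level of 30 genes in each of the 82 cells, as log2(molecules per 10000 molecules of the cell + 1), with cells in columns by subset, then tag, then falling total. Grey marks genes that the tag 1 table does not count. Thy1 and Fn1 are above 0 in all 30 double-positive cells, Lyz2 reaches 2 molecules in 21 of the 22 Cd34-only cells with Ptprc, and Epcam in 10 of the 14 Il33-only cells where it was counted.

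Between Il33-only and Cd34-only cells, 13 of 210 genes (6.19%) were at least 4-fold higher in the Il33-only set and 44 (21%) at least 4-fold lower. Il33 and Cd34, which made the split, are among them. Kit, the stem cell factor receptor, had 1644 against 293 CPM (log2 ratio 2.49) and reached 2 molecules in 5 of 18 and 5 of 34 cells. Gata3, a transcription factor of mammary luminal cells and of type 2 lymphocytes, had 1186 against 185 CPM (2.68), with 2 molecules in 9 and 3 cells. Tgfb3, a TGF-beta ligand, had 1375 against 200.2 CPM (2.78), Cd200 4933 against 708 CPM (2.80), and Stat5a, a transcription factor of prolactin and cytokine signalling, 1887 against 246 CPM (2.94). The Stat5a value rested to 52.9% on 1 cell. Mmp12 (4.92), a macrophage elastase, rested to 97.7% on 1 cell, and Arg1 (4.21), arginase 1, to 73.0% on 1 cell. Zbtb16, a zinc finger transcription factor, had a log2 ratio of 2.35 from 16 and 11 molecules.

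Toward the Cd34-only set large ratios belonged to Elane, Ube2c, Irf8, Thy1, 2810417H13Rik, Itgae and Ly86. Most rested on 1 to 5 molecules in the Il33-only set: Elane had 1 against 206, Irf8 3 against 278 and Ly86, a partner of a lipopolysaccharide-related receptor, 3 against 169 molecules. Thy1 had 458 against 8724 CPM, a log2 ratio of -4.25. Of the 57 Itgae molecules of the Cd34-only cells, an integrin chain, 96.5% came from 1 cell. All 206 Elane molecules of the Cd34-only set lay in cells with Ptprc, and all 16 Cd34-only cells with 2 or more Ly86 molecules had Ptprc. Without cells of 2 or more Ptprc molecules the counts became 24 higher and 22 lower, of 145 genes. That setting left 16 Il33-only and 12 Cd34-only cells.

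All together, the 82 cells differed most from all other cells in a handful of genes. Most of these were stromal-like markers or listed fibroblast genes. The other cells include the S100a8-rich gate, which held 6820 of all 12018 cells. Of 222 genes with at least 30 molecules in the 82 cells, 11 (4.95%) were at least 5-fold above the other cells in every tag and 44 (19.8%) at least 2-fold. The median gene stood at 0.823 times the other cells in its lowest tag. Cd34 and Il33 lead by construction. Lrrc32 had 1137, 1571, 2100.6 and 2169 CPM in tags 1 to 4, against 31.8, 16.6, 13.6 and 29.2 CPM in the other cells. All 4 values lay above all 4 of the other cells, and the smallest ratio was 35.7. The Poisson 95% intervals, which cover counting error only, ran from 964 to 1332 CPM in tag 1 and from 1807 to 2582 CPM in tag 4.

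**Figure D3:**
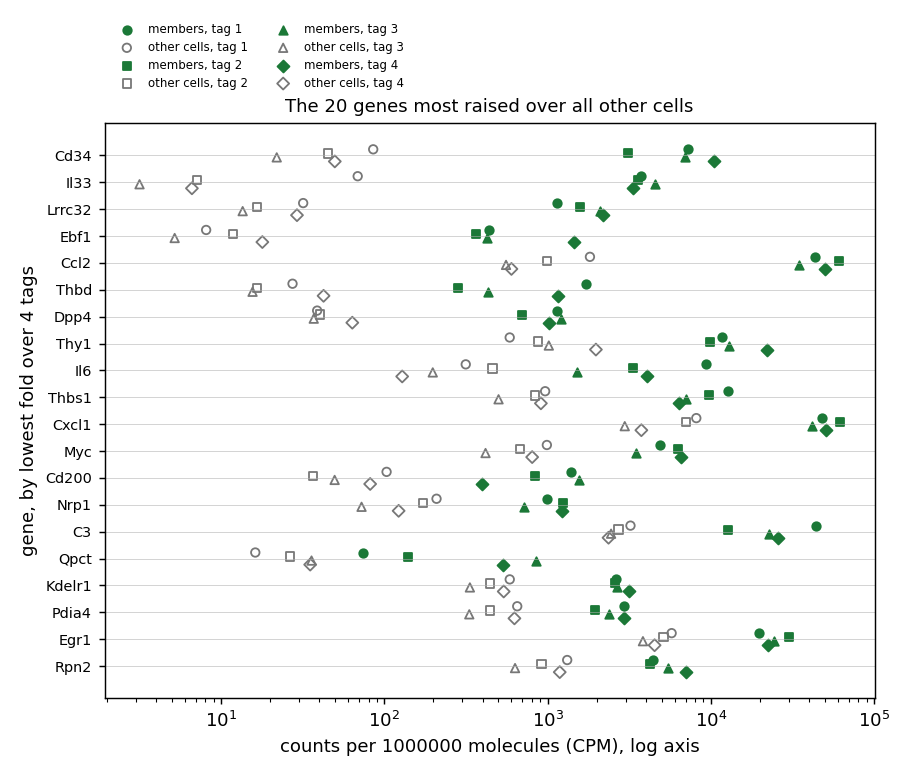
CPM in the chosen cells (filled) and in all other cells (open) of each tag, on a log axis, for the 20 genes with the largest fold in their lowest tag. Cd34 and Il33 were used to choose the cells. For every gene shown the filled symbols lie above the open symbols of the same tag, from 68.1-fold for Cd34 in its lowest tag to 3.4-fold for Rpn2.

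Ccl2 had 43566, 60778, 34488 and 50207 CPM in the chosen cells and 1816, 993, 556 and 600.4 CPM in the others. The smallest ratio was 24.0, and the macrophage gate lay between, at 3899 CPM with 2 molecules in 49.4% of its 233 cells. Thbd had 1717, 281, 434 and 1153 CPM against 27.4, 16.6, 15.6 and 42.4 CPM, with the smallest ratio at 16.9. Tags 1 and 4 were the high ones. In the double-positive cells alone Thbd had 2052, 266, 742 and 1635 CPM, and 1 cell held 40 of the 58 molecules of tag 4.

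The other genes at 5-fold or more were Ebf1, Dpp4, Thy1, Il6, Thbs1 and Cxcl1. Ebf1 had 438, 365, 424 and 1446 CPM (smallest ratio 30.8), and tag 4 was the high one. Dpp4 had 1137, 702, 1213 and 1015 CPM (16.0), Thy1 11616, 9933, 12939 and 22152 CPM (11.2), and Il6 9290, 3339, 1509 and 4062 CPM (7.26). Thbs1, thrombospondin 1, a matrix protein that activates TGF-beta, had 12679, 9765, 7081 and 6403 CPM (7.04), and Cxcl1, a neutrophil chemokine, 48188, 61507, 41529 and 50465 CPM (5.92). Myc, Cd200, Nrp1 (neuropilin 1, a co-receptor of VEGF and semaphorins) and C3 followed at 4.94-, 4.83-, 4.74- and 4.70-fold, although Cd200 was at 0.725 times the macrophage gate in its lowest tag. Qpct, Kdelr1, Pdia4, Egr1 and Rpn2 completed the leading 20 among genes with 100 molecules. Kdelr1, Pdia4 and Rpn2 serve retention, folding and glycosylation of proteins in the endoplasmic reticulum, and were seen in 90.2, 82.9 and 95.1% of the 82 cells.

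For Lrrc32 and Thy1 the other gates held few such cells. At 2 or more molecules, Lrrc32 was found in 39.0% of the 82 cells, in 0.429% of the macrophage gate (median total 4680), in 0.742% of the Lgals1-high gate (2802) and in 0.161% of the S100a8-rich gate (1493). When each cell was thinned to 1000 molecules, which left 72 of the 82 cells, these shares were 25.0, 0, 0.244 and 0.0828%. Thy1 was at 50.0% after thinning, against 1.43, 1.83 and 1.14%. Other genes were common in other gates too. Cxcl1 had 2 molecules in 74.4% of the 82 cells, in 70.0% of the macrophage gate and in 61.1% of the Lgals1-high gate, and Ccl2 in 54.9, 49.4 and 14.7%. For C3, 78.0% of the 82 cells and 58.0% of the S100a8-rich gate had 2 molecules, so for these 3 genes at least 1 other gate also held them in a large share of cells.

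By role, genes of the TGF-beta and matrix list stood both above and below the other cells. Lrrc32, Thbs1 and Fn1 were at least 2-fold above the other cells in every tag, which is 3 of the 6 list genes with 30 molecules, where 19.8% of all genes did so. Fn1 had 49362, 25675, 51254 and 79535 CPM, and the Lgals1-high gate had 40458 CPM. Spp1, osteopontin, was lower than in the other cells in every tag, at 2817, 7183, 3511 and 757 CPM against 57888 CPM in the Lgals1-high gate. Tgfb1 had a single molecule over the 82 cells.

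In the IL-33 list, Il33 itself chose the cells. Il1rl1, the receptor, had 25 molecules, 20 of them in double-positive cells, and Gata3 had 70. Il4, Il5 and Il13, the type 2 cytokines, had 0 molecules in the 82 cells. Of the chemokine list, Ccl2, Cxcl1 and Cxcl10, an interferon-induced T cell chemokine, were at least 2-fold higher in every tag, which is 3 of the 8 genes with 30 molecules, again against 19.8% of all genes. Cxcl2, a further neutrophil chemokine, had 14329, 22616, 14103 and 31136 CPM against 39907, 44539, 37246 and 31490 CPM in the other cells, and no tag was above them.

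None of the checkpoint and class II genes with 30 molecules was at least 2-fold above the other cells in every tag. None of the 6 checkpoint and suppressive genes with 30 molecules was 2-fold higher in every tag. With each gene taken in its lowest tag, their median was 0.126 times the other cells, where that of all 222 genes was 0.823. This lowest-tag value is not the fold over the tags together. Cd274, which encodes PD-L1, the ligand of PD-1, had 907, 1094, 1627 and 1239 CPM, against 4245, 4601, 4439 and 3579 CPM in the other cells. Those ranges did not overlap. H2-Aa had 5351, 4742, 27880 and 4768 CPM, with tag 3 the high one, and 99.3% of the 2827 H2-Aa molecules of tag 3 came from its 13 cells with Ptprc. Of the 8 immediate early and stress genes with 30 molecules 5 were at least 2-fold higher in every tag, namely Fosb, Jun, Egr1, Dusp1 and Myc, against 19.8% of all genes.

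**Figure D4:**
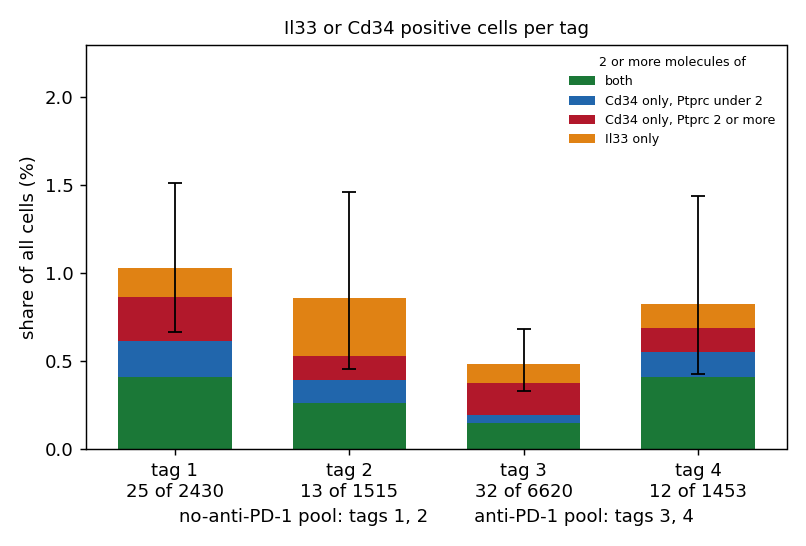
Share of all cells of each tag that met the rule, stacked by subset, with the exact Clopper-Pearson 95% interval of the whole share. The bars stand at 1.03, 0.858, 0.483 and 0.826%, and the intervals of all 4 tags overlap in part.

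Il33 or Cd34 positive cells were a small share of every tag. They made up 1.03% (95% interval 0.667 to 1.52), 0.858% (0.458 to 1.46), 0.483% (0.331 to 0.682) and 0.826% (0.427 to 1.44) of cells in tags 1 to 4, and tag 3 was the lowest. The mean of the anti-PD-1 pool was 0.289 percentage points below that of the no-anti-PD-1 pool, a difference of -0.118 points without tag 3, -0.460 without tag 4 and -0.0558 for double-positive cells. Cells outside the S100a8-rich gate as the denominator gave 2.27, 1.99, 1.19 and 1.60%, and a difference of -0.738 points. Double-positive cells were 0.412, 0.264, 0.151 and 0.413% of cells, again with tag 3 the lowest and with no order between the pools. The composition of the 82 cells differed as well: cells with 2 or more Ptprc molecules were 8 of 25, 2 of 13, 13 of 32 and 6 of 12.

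At the edges of the rule the cells were less uniform. Of 144 cells with 2 molecules of Il33 or Cd34, 35 were removed for a Cd3 molecule, C1q, mast cell genes and S100a8 removed 11, 20 and 20, and some failed more than 1 criterion. The 12 cells removed by S100a8 alone began at 11.0% S100a8, and the highest chosen cell had 9.96%. Exactly 15 chosen cells had only 2 molecules of their higher gene, of which 8 had Ptprc and 1 had Thy1, each at 2 or more. Of 41 cells that failed only by having 1 molecule, 24 had Ptprc and 2 had Thy1.

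Between the pools, few genes of the 82 cells differed in both tags. For a call, the higher pool's lower tag had to exceed the other pool's higher tag by at least 1.5-fold, with 30 molecules in all. Of 222 genes, 12 (5.41%) were called toward the anti-PD-1 pool, that is higher there, and 8 (3.6%) lower. The median log2 ratio of all 222 was 0.08. Without the 16 cells of high total 7 of these 12 and 3 of these 8 calls remained, and with at least 3 molecules of Il33 or Cd34 per cell 8 and 3. Without the 59 cells of high Lgals1, which include 28 of the 30 double-positive cells, 2 of the 12 (Havcr2 and Itgax) and 0 of the 8 remained. Only 156 genes had 30 molecules in that setting, so a gene could lose its call by no longer being measured. The 5 marker genes of the stromal-like list had no call. Their median log2 ratio was 0.11.

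Il3ra, the alpha chain of the interleukin 3 receptor, had the largest pool ratio. Its call was not among those that remained without the 59 cells of high Lgals1, a setting with fewer genes measured. It had 453 and 449 CPM in tags 1 and 2, from 61 and 16 molecules, and 9.86 and 17.2 CPM, from 1 molecule each, in tags 3 and 4. The pools did not overlap. In the double-positive cells it was seen in 10 of 10 and 3 of 4 cells of tags 1 and 2 and in 1 of 10 and 1 of 6 cells of tags 3 and 4. The other cells of the tumours had 41.5, 49.7, 3.1 and 3.0 CPM, in the same order of pools. Cartridge and antibodies cannot be told apart, since each pool was 1 cartridge.

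Genes of DNA synthesis and division were among the lower calls. Of the 7 proliferation genes measured, 3 were called lower, where 3.6% of all genes were: Tyms, thymidylate synthase, with 1657, 758, 434 and 396 CPM, Pcna, the sliding clamp of DNA replication, with 2586, 3704, 1371 and 912 CPM, and Ube2c with 951, 281, 118 and 138 CPM. The list's median log2 ratio was -1.46. One cell held 59.2% of the Tyms molecules of tag 1 and 1 cell held 63.3% of its Ube2c molecules, and none of the 3 calls remained without the cells of high total. In the other cells Pcna had 1582, 1238, 553 and 893 CPM and Tyms 390, 215, 114 and 294 CPM. The other lower calls were Tcf7, Il18rap, Nt5e and Il1b, with 38, 68, 123 and 47 molecules in all. Nt5e, the ectoenzyme CD73 that makes adenosine, had 528, 505, 306 and 51.6 CPM, and 80.6% of its tag 3 molecules came from 1 cell.

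The higher calls in the anti-PD-1 pool were partly leukocyte genes carried by few cells. Itgax, the integrin CD11c, had 81.8, 84.2, 572 and 551 CPM (log2 ratio 2.76), and 1 cell held 86.2% of its tag 3 and 71.9% of its tag 4 molecules. Nkg7, a granule protein of cytotoxic cells, had no molecule in tags 1 and 2 and 187 and 448 CPM in tags 3 and 4, from 45 molecules. Havcr2, the inhibitory receptor TIM-3, had 171, 253, 1164 and 637 CPM (2.09), with 59.3% of its tag 3 molecules in 1 cell. Zbtb16 had 52.0, 168, 345 and 499 CPM (1.94), and Qpct, glutaminyl cyclase, 74.3, 140.3, 848 and 534 CPM (2.69), with 72.1% of its tag 3 molecules in 1 cell. Oas2, an interferon-induced antiviral enzyme, had 379, 196, 769 and 947 CPM (1.58). Itgam, Fscn1, Fyn, Irf7 and Il4ra had log2 ratios between 0.81 and 1.40.

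Within the double-positive cells, 9 of 142 genes (6.34%) were called higher and 9 (6.34%) lower, and 8 of the 20 genes above kept their call: Il3ra, Nt5e, Pcna and Tyms lower, and Fscn1, Oas2, Qpct and Zbtb16 higher. Single cells carried much of the lower ones: 1 cell held 82.5% of the Tyms and 1 cell 70.4% of the Pcna molecules of tag 1, 88.9 and 85.7% of them in tag 2, and Nt5e had 28, 2, 3 and 0 molecules. Zbtb16 was seen in 2 of 10 and 0 of 4 cells of tags 1 and 2 and in 6 of 10 and 4 of 6 cells of tags 3 and 4. Qpct was seen in 4 of 10, 1 of 4, 5 of 10 and 6 of 6 cells. Fscn1, the actin-bundling protein fascin, had 1324, 886, 2673 and 2508 CPM, with 45.0% of its tag 1 and 44.4% of its tag 3 molecules in 1 cell each.

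In the double-positive cells alone, Lrrc32, Lilrb4a, Pik3ip1, Ccl6 and Clec4e were also called higher. Lilrb4a had the largest log2 ratio of the higher calls, 3.12, from 2, 4, 95 and 34 molecules in tags 1 to 4. Pik3ip1, Ccl6 and Clec4e had 1.99, 1.86 and 1.71, from 64, 41 and 36 molecules in all. Among all chosen cells without 2 Ptprc molecules, which include other subsets, none of Lrrc32, Lilrb4a, Pik3ip1, Ccl6 and Clec4e was called. Lilrb4a had a log2 ratio of -0.04 there. Clec4e had 0 CPM there in tag 4, so its 10 molecules in double-positive cells of tag 4 lay in cells with Ptprc. Lrrc32 had a log2 ratio of 1.00, with 1509, 1682, 3440 and 2959 CPM. Its Poisson 95% intervals were 1245 to 1813, 1013 to 2627, 2892 to 4062 and 2420 to 3582 CPM. Both anti-PD-1 tags lay above both others. The counts per cell overlapped, however, with medians of 8.0, 5.0, 4.5 and 21.5 molecules, and 1 cell of tag 3 held 61.2% of its 139 molecules. Hmox1, heme oxygenase 1, was called lower, at 6063, 17533, 4034 and 3213 CPM, with 91.4% of its tag 2 molecules in 1 of 4 cells.

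**Figure D5:**
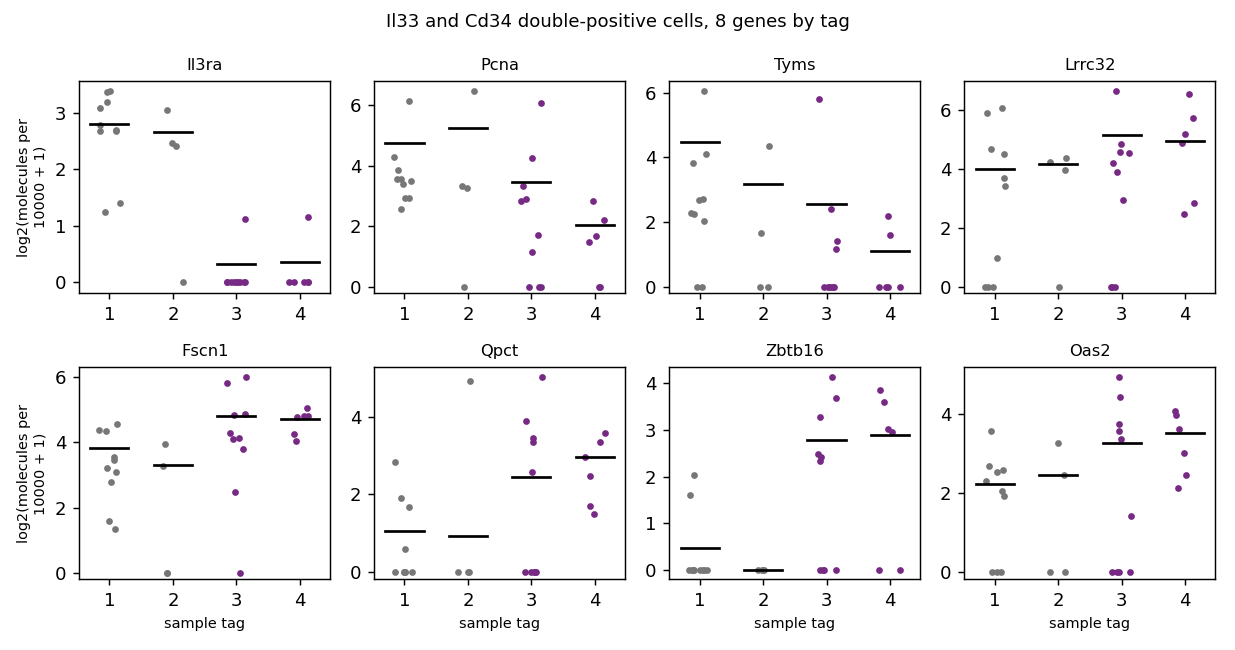
Level of 8 genes in each double-positive cell, as log2(molecules per 10000 molecules of the cell + 1), by tag (10, 4, 10 and 6 cells). Points are cells, and lines are the value of the summed molecules of the tag. Il3ra lies above 0 in 10 of 10 and 3 of 4 cells of tags 1 and 2 and in 1 of 10 and 1 of 6 cells of tags 3 and 4.

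Between the tags of a pool many differences rested on single cells. From tag 1 to tag 2, 30 of the genes tested (16%) were at least 2-fold higher and 24 (12.8%) at least 2-fold lower. The 41 Ccl20 molecules of tag 2 lay in 1 cell. Of the Ighm and Igkc molecules of tag 1, immunoglobulin genes of B lineage cells, 96.8 and 99.1% came from 1 cell each. Ncam1 (1189 and 56.1 CPM), a neural adhesion molecule, and Arg1 (1308 and 84.2 CPM) were lower in tag 2, with 56.3 and 79.0% from 1 cell. Tgfb3 was higher in tag 2, at 268 and 1235 CPM, and 50.0% of its tag 2 molecules came from 1 cell. Clec4e, Il1a and F13a1 had log2 ratios of 2.21, 2.33 and 2.64, with 54.0, 58.4 and 81.8% of the tag 2 molecules in 1 cell.

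From tag 3 to tag 4, 18 of 190 genes (9.47%) were at least 2-fold higher and 28 (14.7%) at least 2-fold lower. Kit had 76 molecules in tag 3, with 27.6% in the highest cell, and 1 molecule in tag 4. Tag 3 held 7 Il33-only cells and tag 4 held 2, both with Ptprc. Flt3, Irf8, Itgae and Tlr3 were lower in tag 4 and rested on 1 tag 3 cell for 56.3, 74.2, 96.5 and 62.5% of molecules. Mmp12, Elane and Arg1 were higher in tag 4, with 97.7, 99.4 and 93.1% of molecules in 1 cell. Ebf1 (424 and 1446 CPM) and Ccl3 (1095 and 5112 CPM), a chemokine of inflammation, were higher with 25.0 and 38.0% of the tag 4 molecules in the highest cell.

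Across the 82 cells, the genes most like Cd34 by Spearman rank correlation of each cell's share of molecules were Thy1 (rho 0.70), Thbd (0.60), Dpp4 (0.60), Fn1 (0.57) and Ebf1 (0.55). Those most like Il33 were Egr1 (0.58), Cd63 (0.54), a tetraspanin of vesicles, Kdelr1 (0.52), Mgst1 (0.48), a membrane glutathione transferase, and Fosb (0.47). These values describe cells that share libraries and were selected on both genes. Within the 30 double-positive cells rho of Cd34 was 0.51 with Thy1, 0.32 with Thbd, 0.56 with Dpp4, 0.44 with Fn1 and 0.22 with Ebf1. That of Il33 was 0.25 with Egr1, 0.22 with Cd63, 0.28 with Kdelr1, 0.35 with Mgst1 and 0.09 with Fosb.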

How the data were processed

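The authors deposited counts of molecules per cell and target for each sample tag, made by version 1.12.1 of the BD Rhapsody Targeted Analysis Pipeline and corrected by distribution-based error correction, per the file headers. The submitters' processing notes list Seurat 3.2.0. An aligner or build is not given in the sources used here. The reference of tag 1 (397 targets for 396 genes, with 2 Tigit targets summed) differed from that of tags 2 to 4 (468 genes), so 396 genes were compared over 4 tags and 72 were read in tags 2 to 4. Molecules of different genes depend on their primers, and levels were not compared between genes.

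From these counts, molecules were summed per tag and set of cells and scaled to CPM (Python 3.11.15, pandas 2.3.3, scipy 1.17.1). For ratios, 0 molecules were replaced by 3 counts, and such a value was never called the higher one. Shares carry exact Clopper-Pearson and sums exact Poisson 95% intervals, which cover counting error only, and 1 molecule was worth 7.43 to 28.1 CPM in the 82 cells of a tag. TMM scaling (edgeR 4.0.16) was an alternative. Gene positions come from GENCODE M21 by the transcript identifiers of 392 targets of tag 1. Genes were named by rank of fold within each comparison or by membership in the lists. The cells, lists and comparisons were chosen with earlier results of these data known, and the split by Ptprc, the Epcam split and the sets of double-positive cells alone were chosen after the data had been seen. Results of 2 named genes are not reported here.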

Additional observations from a re-analysis of the deposited data

How the results depend on the processing

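No paired analysis was possible because each group has 1 sample. The lower share of the anti-PD-1 pool (-0.289 percentage points) was negative in all alternatives run, from -0.0558 to -0.738, the last with cells outside the S100a8-rich gate as the denominator. Genes between the pools (12 higher, 8 lower, of 222) numbered 6 and 4 with 2-fold between the nearest tags. With Ptprc-positive cells left out they numbered 6 and 19 of 175. Without the 59 chosen cells of at least 2% Lgals1 they numbered 10 and 11 of 156, but 2 and 0 of the original calls remained. The 13 of 210 genes higher in Il33-only cells became 6 of 122 after thinning to 1000 molecules and 24 of 145 without Ptprc-positive cells. Without chosen cells of at least 2% Lgals1, which left 13 Il33-only and 8 Cd34-only cells, they became 21 of 150. The 44 of 210 genes higher in Cd34-only cells became 22 of 145 without Ptprc-positive cells. Tag 2 against tag 1 gave 99 genes at 1.5-fold (54 at 2-fold). Tag 4 against tag 3 gave 95 at 1.5-fold (46 at 2-fold), 76 without cells of high total, and 20 in double-positive cells. The fold of Cd200 turned to 0.725 in its lowest tag against the macrophage gate. The cause of each change was not tested, beyond fewer cells where cells were left out. TMM scaling gave 11 higher and 9 lower genes and kept 18 of the 20 calls, losing Fscn1 and Irf7. With 12 cells in the smallest tag, 1 cell can set a gene's value.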
